A study of Mus musculus with 8 samples.

Results

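Lrg1, Saa3, Itih3, Itih4, F2 and Vtn encode secreted plasma proteins, of which several are acute-phase proteins. Their transcripts were followed on 8 Affymetrix mouse arrays of whole pancreas taken at an age of 3 weeks. The 6 genes were taken by symbol from the 8251 genes on the array, and they had been picked with their levels in these groups known. Their levels and differences are therefore given as a description. Whether they passed the threshold of the whole table is stated for scale and is no evidence for them. Each had 1 probe set, which carried no other symbol: 97420_at for Lrg1, 102712_at for Saa3, 100002_at for Itih3, 98467_at for Itih4, 101899_at for F2 and 98549_at for Vtn.

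The design crossed the T cell receptor transgene BDC2.5 with the scid mutation on the NOD background. NOD mice, which develop autoimmune diabetes, made up the first group. BDC2.5/NOD mice added the transgene, whose product recognises a beta cell antigen, and can still rearrange their own receptor genes. NOD.scid mice carry the scid mutation and lack most T and B cells but keep macrophages, neutrophils and other innate cells. BDC2.5/NOD.scid mice carry both, so that the transgenic receptor dominates their T cells. Each group had 2 arrays. The labels describe RNA of pooled animals, isolated 2 times from 6 animals each. They leave unsaid whether a group's 2 arrays stand for different pools, so the errors and p-values below may hold only technical spread. The promoter behind the transgene is not given in the labels. All values are log2 signals as deposited.

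Acute-phase proteins are made mainly by the liver during inflammation, when interleukin 6, acting through STAT3, and interleukin 1, acting through NF-kB and C/EBP factors, raise transcription of their genes. Some are also made outside the liver, in epithelium, endothelium, fat and macrophages. Lrg1 encodes leucine-rich alpha-2-glycoprotein, a secreted modulator of TGF-beta signalling in vessels. Saa3 encodes a serum amyloid A protein that in mice is made largely in tissues other than the liver. Itih3 and Itih4 encode heavy chains of the inter-alpha-trypsin inhibitor family, whose classical heavy chains are linked to hyaluronan in the extracellular matrix. F2 encodes prothrombin, the precursor of the clotting protease thrombin. Vtn encodes vitronectin, an adhesion protein that binds integrins and stabilises the plasminogen activator inhibitor PAI-1. Unlike the other genes, Vtn was lower in both transgenic groups than in their controls.

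The start-site windows of the 4 genes whose levels differed most between groups are shown, since Lrg1 and Saa3 followed another order of groups than Itih4 and Vtn. Each covers 250 bases before to 50 after a RefSeq start site in GRCm38.p6, which is C57BL/6J and not NOD sequence. A window was found for all 6 genes. The 4 windows lie at chr17:56121897-56122196 on the minus strand for Lrg1, chr7:46715627-46715926 on the minus strand for Saa3, chr14:30886226-30886525 on the plus strand for Itih4 and chr11:78498870-78499169 on the plus strand for Vtn. Capitals mark matches on either strand to STAT (TTCNNNGAA), C/EBP (TTGCNNAA), NF-kB (GGNNTTTCC), HNF4 (CAAAGTC) or a partial HNF1 site (GTTAAT).
Lrg1: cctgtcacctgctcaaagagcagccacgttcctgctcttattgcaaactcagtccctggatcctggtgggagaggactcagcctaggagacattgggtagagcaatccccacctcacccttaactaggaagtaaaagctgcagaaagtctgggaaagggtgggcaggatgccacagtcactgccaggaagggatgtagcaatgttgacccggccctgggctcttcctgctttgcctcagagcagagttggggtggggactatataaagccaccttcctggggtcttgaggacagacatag
Saa3: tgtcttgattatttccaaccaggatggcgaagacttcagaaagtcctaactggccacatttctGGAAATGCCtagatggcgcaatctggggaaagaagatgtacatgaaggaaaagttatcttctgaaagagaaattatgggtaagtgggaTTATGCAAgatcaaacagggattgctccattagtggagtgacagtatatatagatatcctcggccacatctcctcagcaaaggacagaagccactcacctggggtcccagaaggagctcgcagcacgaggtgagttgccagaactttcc
Itih4: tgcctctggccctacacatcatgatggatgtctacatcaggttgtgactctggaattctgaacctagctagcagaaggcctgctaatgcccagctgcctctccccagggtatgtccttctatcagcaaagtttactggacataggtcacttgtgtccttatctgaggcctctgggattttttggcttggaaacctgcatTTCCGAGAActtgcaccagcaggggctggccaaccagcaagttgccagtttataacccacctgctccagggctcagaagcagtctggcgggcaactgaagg
Vtn: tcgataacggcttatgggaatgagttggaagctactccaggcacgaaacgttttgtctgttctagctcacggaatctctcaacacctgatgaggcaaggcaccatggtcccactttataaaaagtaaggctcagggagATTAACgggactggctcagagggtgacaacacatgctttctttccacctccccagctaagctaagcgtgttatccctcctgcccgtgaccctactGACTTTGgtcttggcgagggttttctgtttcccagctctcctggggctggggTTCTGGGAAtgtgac

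The Saa3 window held a C/EBP match at position -99 from the start site and an NF-kB match at -187, both on the minus strand of the window. The Itih4 window held a STAT match at -51. The Vtn window held an HNF4 match at -17, a partial HNF1 site at -112 and a STAT match at 36 within the transcript. The F2 window, not printed, held a partial HNF1 site at 9, and the Lrg1 and Itih3 windows held none of the 5 motifs. No 2 of these matches overlapped. Among 32851 promoter windows of this length, 8.3% held the STAT letters, 10.8% those of C/EBP, 5.82% those of NF-kB, 4.44% those of HNF4 and 7.1% the partial HNF1 site. A match describes the letters only.

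Some properties of the arrays touch all results. The 9 acinar markers on the array, a check of the tissue, averaged 11.16 to 11.40 on every array, in the upper range of the values. Correlations between arrays of a group were 0.9912 to 0.9961, and those between groups 0.9773 to 0.9902. The middle beta-actin control was high, at 9.26 to 9.55, for replicate 2 of BDC2.5/NOD.scid and replicate 1 of NOD and of NOD.scid; the remaining 5 arrays gave 6.95 to 7.74. Arrays of BDC2.5/NOD differed from the rest in ways that cannot be told apart from the group: the SD within the pair was 0.094 against 0.131 to 0.143 elsewhere, and the BioB spike control read 7.02 to 7.06 against 5.89 to 6.44. An immunoglobulin kappa probe set, singled out after its values were seen, gave 6.24 to 6.47 for BDC2.5/NOD.scid, 5.25 to 5.41 for NOD.scid, 5.62 to 5.66 for BDC2.5/NOD and 7.35 to 7.36 for NOD, so the BDC2.5/NOD.scid arrays were above NOD.scid at this probe set for a B cell product that scid mice should lack. At the 4 other kappa probe sets, BDC2.5/NOD.scid minus NOD.scid was 0.02 to 0.20. The deposited values carry no detection calls, so which low readings lay above background is not known here, and differences from such readings may be too small.

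Lrg1 and Saa3 were highest in BDC2.5/NOD.scid. Lrg1 was also higher in BDC2.5/NOD than in NOD, whereas Saa3 there differed by less than the spread between arrays. Lrg1 read 4.19 and 4.20 for NOD, 4.35 and 4.11 for NOD.scid, 5.07 and 5.16 for BDC2.5/NOD, and 7.85 and 7.87 for BDC2.5/NOD.scid. The NOD and NOD.scid arrays overlapped, both BDC2.5/NOD arrays lay above them, and both BDC2.5/NOD.scid arrays lay far above all others. The Lrg1 means were 4.19 ± 0.006 (SD, n = 2) for NOD, 4.23 ± 0.17 (SD, n = 2) for NOD.scid, 5.11 ± 0.06 (SD, n = 2) for BDC2.5/NOD and 7.86 ± 0.016 (SD, n = 2) for BDC2.5/NOD.scid. The transgene went with 12.3-fold higher Lrg1 in NOD.scid (log2 difference 3.63, SE 0.102) and 1.89-fold higher Lrg1 in NOD (0.92, SE 0.102). By size, the first was rank 3 of all 12422 probe sets tested.

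Saa3 read 3.58 and 3.83 for NOD, 3.72 and 3.84 for BDC2.5/NOD, 3.54 and 3.54 for NOD.scid, and 6.39 and 6.19 for BDC2.5/NOD.scid. Both BDC2.5/NOD.scid arrays were high and the other 6 lay between 3.54 and 3.84, where NOD and BDC2.5/NOD overlapped and NOD.scid was just below both. The Saa3 means were 3.71 ± 0.176 (SD, n = 2) for NOD, 3.78 ± 0.089 (SD, n = 2) for BDC2.5/NOD, 3.54 ± 0.002 (SD, n = 2) for NOD.scid and 6.29 ± 0.139 (SD, n = 2) for BDC2.5/NOD.scid. The difference with the transgene was 2.75 (SE 0.115), or 6.73-fold, in NOD.scid and 0.07 (SE 0.115) in NOD. Between the transgenic groups, scid went with 5.7-fold higher Saa3 and 6.69-fold higher Lrg1. The difference between the 2 transgene effects was 2.70 (SE 0.144) for Lrg1 and 2.68 (SE 0.163) for Saa3. In bulk tissue, more cells that make a transcript and more transcript per cell cannot be told apart.

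**Figure D1:**
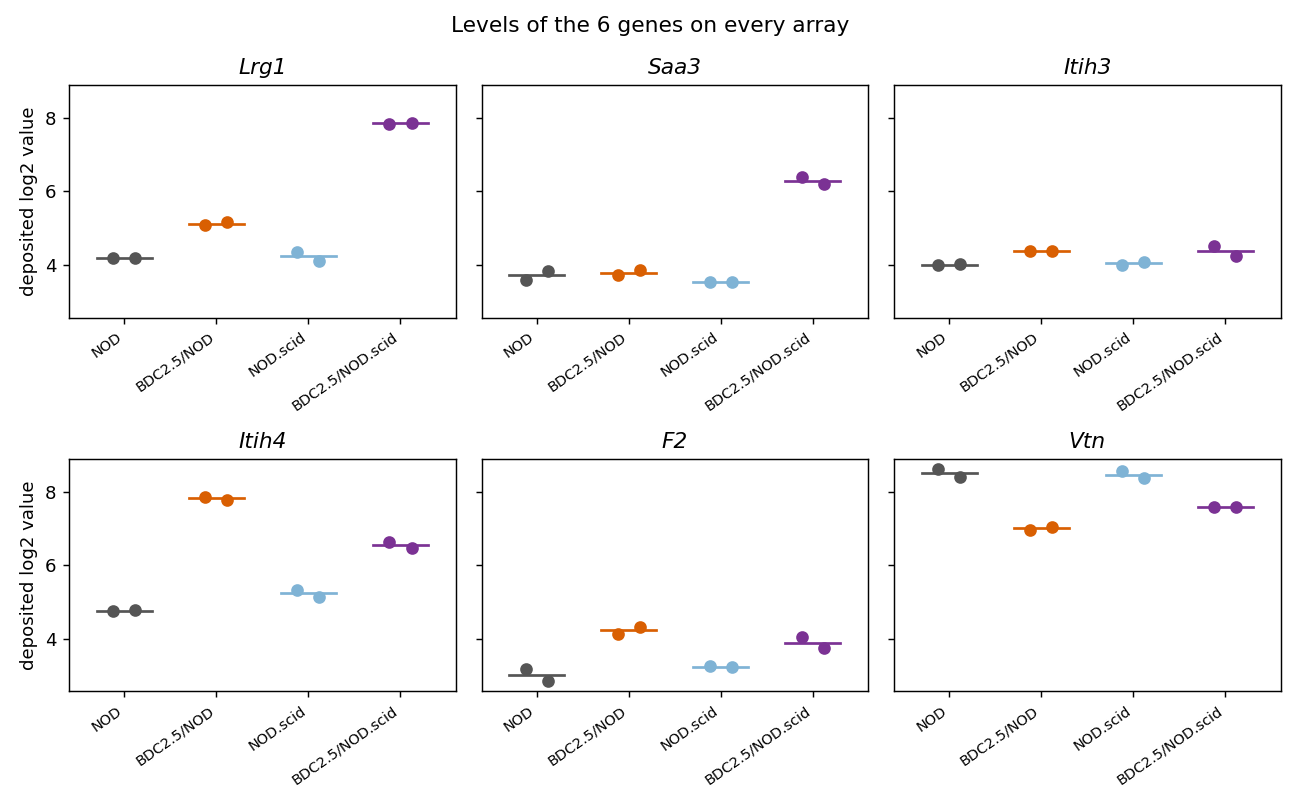
Log2 signal of Lrg1, Saa3, Itih3, Itih4, F2 and Vtn (y axis) in the 4 groups (x axis), with each point 1 array and each bar the mean of 2. Lrg1 and Saa3 are highest in BDC2.5/NOD.scid, at 7.86 and 6.29, Itih4 and F2 in BDC2.5/NOD, at 7.82 and 4.22, and Vtn in NOD and NOD.scid, at 8.51 and 8.47.

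Itih4 was higher with the transgene in both backgrounds, and the larger difference was in NOD. It read 4.74 and 4.77 for NOD, 5.33 and 5.14 for NOD.scid, 6.63 and 6.48 for BDC2.5/NOD.scid, and 7.87 and 7.77 for BDC2.5/NOD. The 4 groups did not overlap in this order. The Itih4 means were 4.76 ± 0.021 (SD, n = 2), 5.23 ± 0.129 (SD, n = 2), 6.55 ± 0.107 (SD, n = 2) and 7.82 ± 0.069 (SD, n = 2) in the same order. With the transgene, Itih4 was 8.36-fold higher in NOD (log2 difference 3.06, SE 0.099) and 2.5-fold higher in NOD.scid (1.32, SE 0.099), and the second minus the first was -1.74 (SE 0.14). The difference in NOD was rank 9 by size of all probe sets. Between the transgenic groups Itih4 was thus lower with scid, by 2.41-fold, where Lrg1 and Saa3 were higher. Without the transgene it was 1.39-fold higher in NOD.scid than in NOD.

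Itih3 differed far less. It read 3.98 and 4.01 for NOD, 4.0 and 4.08 for NOD.scid, 4.37 and 4.39 for BDC2.5/NOD, and 4.51 and 4.25 for BDC2.5/NOD.scid. The Itih3 means were 4.0 ± 0.023 (SD, n = 2), 4.04 ± 0.057 (SD, n = 2), 4.38 ± 0.011 (SD, n = 2) and 4.38 ± 0.182 (SD, n = 2) in that order. The 4 transgenic arrays, at 4.25 to 4.51, lay above the 4 others, at 3.98 to 4.08, and within each set of 4 the groups overlapped. With the transgene Itih3 was higher by 0.38 in NOD and 0.34 in NOD.scid, each with an SE of 0.108. The array holds a further gene of the cluster: on chromosome 14, Itih4, Itih3 and Itih1 follow each other with no annotated gene between them in GRCm38.p6. Itih1 had means of 3.96 for NOD, 3.88 for BDC2.5/NOD, 3.99 for NOD.scid and 3.93 for BDC2.5/NOD.scid, and passed the test in none of the 5 comparisons.

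F2 followed the order of groups seen for Itih4, at low readings. It read 3.17 and 2.85 for NOD, 3.24 and 3.22 for NOD.scid, 4.03 and 3.74 for BDC2.5/NOD.scid, and 4.13 and 4.31 for BDC2.5/NOD. Every transgenic array lay above every array without the transgene, and NOD lay just below NOD.scid. The F2 means were 3.01 ± 0.227 (SD, n = 2), 3.23 ± 0.017 (SD, n = 2), 3.88 ± 0.206 (SD, n = 2) and 4.22 ± 0.123 (SD, n = 2) in that order. With the transgene F2 was 2.31-fold higher in NOD (log2 difference 1.21, SE 0.133) and 1.57-fold higher in NOD.scid (0.65, SE 0.133). The difference between the 2, -0.56 (SE 0.188), missed the threshold used for the whole table.

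Vtn had the reverse order. It read 8.61 and 8.41 for NOD, 8.56 and 8.37 for NOD.scid, 7.57 and 7.58 for BDC2.5/NOD.scid, and 6.95 and 7.05 for BDC2.5/NOD. The 2 groups without the transgene overlapped, BDC2.5/NOD.scid lay below them and BDC2.5/NOD lowest. The Vtn means were 8.51 ± 0.141 (SD, n = 2), 8.47 ± 0.132 (SD, n = 2), 7.58 ± 0.009 (SD, n = 2) and 7.0 ± 0.074 (SD, n = 2) in that order. With the transgene Vtn was 2.86-fold lower in NOD (log2 difference -1.51, SE 0.098) and 1.85-fold lower in NOD.scid (-0.89, SE 0.098). The difference between the 2 was 0.63 (SE 0.139).

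**Figure D2:**
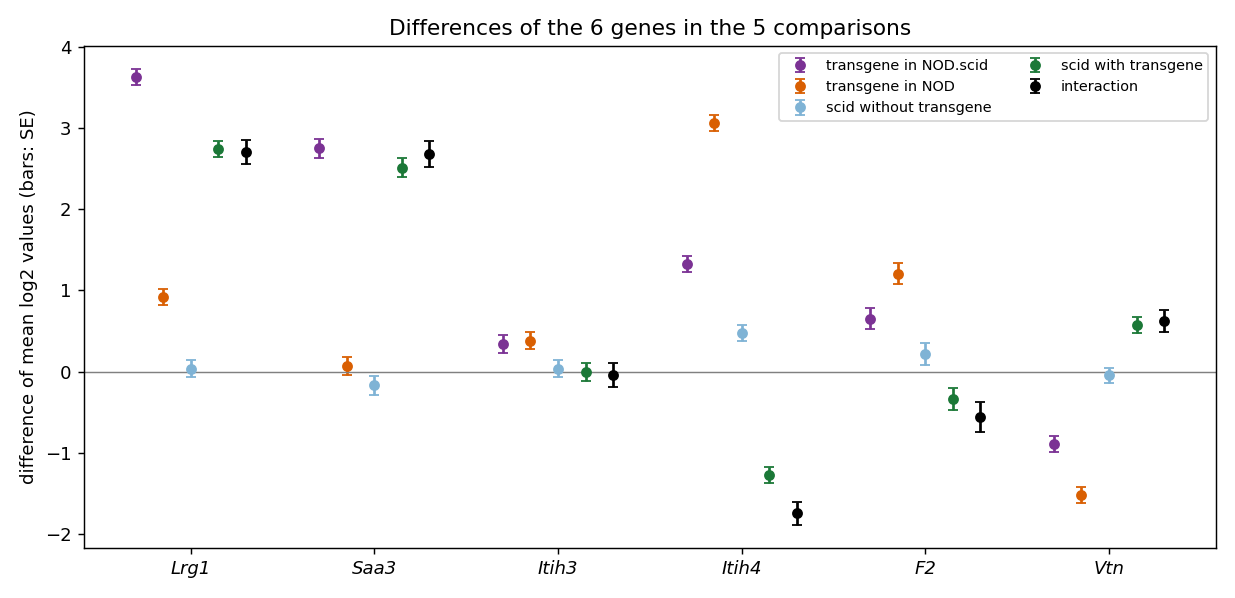
Log2 differences of the 6 genes (x axis) in the 5 comparisons, with each bar an SE. Each point is the difference of 2 group means in the 4 pairwise comparisons. For the interaction it is the transgene effect in NOD.scid minus that in NOD. The transgene differences of Lrg1 and Saa3 are larger in NOD.scid (3.63 and 2.75) than in NOD (0.92 and 0.07), and those of Itih4, F2 and Vtn are larger in NOD (3.06, 1.21 and -1.51).

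For scale, the whole table was tested with limma at a Benjamini-Hochberg adjusted p of 0.05 over 12422 probe sets, and nothing is read from the counts of the 6 genes, which were picked on these values. With the transgene in NOD.scid, 4 of the 6 were past the threshold and higher (2.37% of all probe sets) and 1 lower (4.03%). In NOD, 4 were higher with it (3.91%) and 1 lower (4.06%). Comparing NOD.scid with NOD, 1 was higher (0.741%) and 0 lower (1.61%), the 1 being Itih4. With scid among transgenic mice, 3 were higher (2.99%) and 1 lower (5.35%). For the difference between the 2 transgene effects, 3 were above 0 (2.22%) and 1 below (2.5%). Itih3 with the transgene in NOD was past the threshold but lost it when any 1 of the 4 NOD or BDC2.5/NOD arrays was left out, at differences of 0.37 to 0.40, and also with the actin control as a term (0.29), quantile normalization (0.34) or a replicate block. F2 in NOD.scid lost it without BDC2.5/NOD.scid replicate 1 or NOD.scid replicate 2, at 0.51 and 0.64. Itih4 with scid and no transgene lost it without either BDC2.5/NOD array, either NOD array or NOD.scid replicate 1 (0.39 to 0.49). The Vtn difference of effects lost it without either BDC2.5/NOD array, BDC2.5/NOD.scid replicate 2, NOD replicate 1 or NOD.scid replicate 2 (0.53 to 0.68), and Vtn with scid among transgenic mice without BDC2.5/NOD replicate 1 (0.53).

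The level of the actin control moved no direction of these differences in NOD.scid. Between arrays of low and of high actin, 1 against 1 in each, the transgene difference in NOD.scid was 3.74 and 3.52 for Lrg1, 2.85 and 2.65 for Saa3, 1.49 and 1.15 for Itih4, 0.81 and 0.50 for F2, 0.43 and 0.26 for Itih3, and -0.80 and -0.98 for Vtn. In NOD only the low-actin arrays could be compared, which gave 3.05 for Itih4, 1.37 for F2, 0.92 for Lrg1, 0.37 for Itih3, -0.05 for Saa3 and -1.42 for Vtn. The sign for Saa3 there turned from 0.07, a difference within the spread between arrays.

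Other acute-phase genes were taken from a list of the class, drawn up with earlier results of these data known. Of 25 listed, 21 were measured, and with the transgene in NOD.scid 4 rose and none fell by limma, with a median difference of 0.02 against -0.005 over all probe sets. Cp, which encodes the copper carrier ceruloplasmin, rose by 1.39 (SE 0.096, adjusted p = 1.66e-06). Hp, encoding the haemoglobin-binding haptoglobin, rose by 0.93 (SE 0.114, adjusted p = 0.000304). Serpina3n, a serine protease inhibitor gene, rose by 0.64 (SE 0.09, adjusted p = 0.000942). The fourth, named after its value was seen, was Lbp, encoding lipopolysaccharide-binding protein, at 0.57 (adjusted p = 0.0096). Without BDC2.5/NOD.scid replicate 1 or NOD.scid replicate 1, Lbp did not pass, with differences from 0.42 and adjusted p up to 0.0807.

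In the same comparison within NOD, 0 of the 21 acute-phase genes passed, with a median of 0.02 against 0.03 over all probe sets. The transgene effects themselves differed between the backgrounds for 3: Cp (difference of effects 1.45, adjusted p = 5.62e-05), Lbp (0.90, adjusted p = 0.00844) and Hp (0.72, adjusted p = 0.0238). Among transgenic mice 4 rose with scid, led by Cp at 0.97, Lbp at 0.93 and Hp at 0.85, with a median of 0.14 against -0.01. Without the transgene 1 fell, Cp by 0.48 (adjusted p = 0.0213), and the median was 0.08 against 0.03. The Cp fall, and the Hp difference of effects, were lost when single arrays were left out: either NOD or either BDC2.5/NOD array or NOD.scid replicate 2 for Cp (-0.54 to -0.42), and either BDC2.5/NOD array, BDC2.5/NOD.scid replicate 1, NOD replicate 2 or NOD.scid replicate 1 for Hp (0.59 to 0.85). The Lbp difference of effects was lost without BDC2.5/NOD replicate 2, with an adjusted p of 0.0647.

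Several classical liver acute-phase genes had low readings in all groups. The group means of the fibrinogen genes Fga, Fgb and Fgg were 2.60 to 3.11 and those of Orm1, encoding orosomucoid, 2.48 to 2.72. Group means of Saa2 were 5.94 to 6.26 and of Saa4 4.63 to 4.73, and neither passed the test with the transgene in either background. Serum amyloid A genes are near-identical in part, so a probe set of one can hold signal from another family member.

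**Figure D3:**
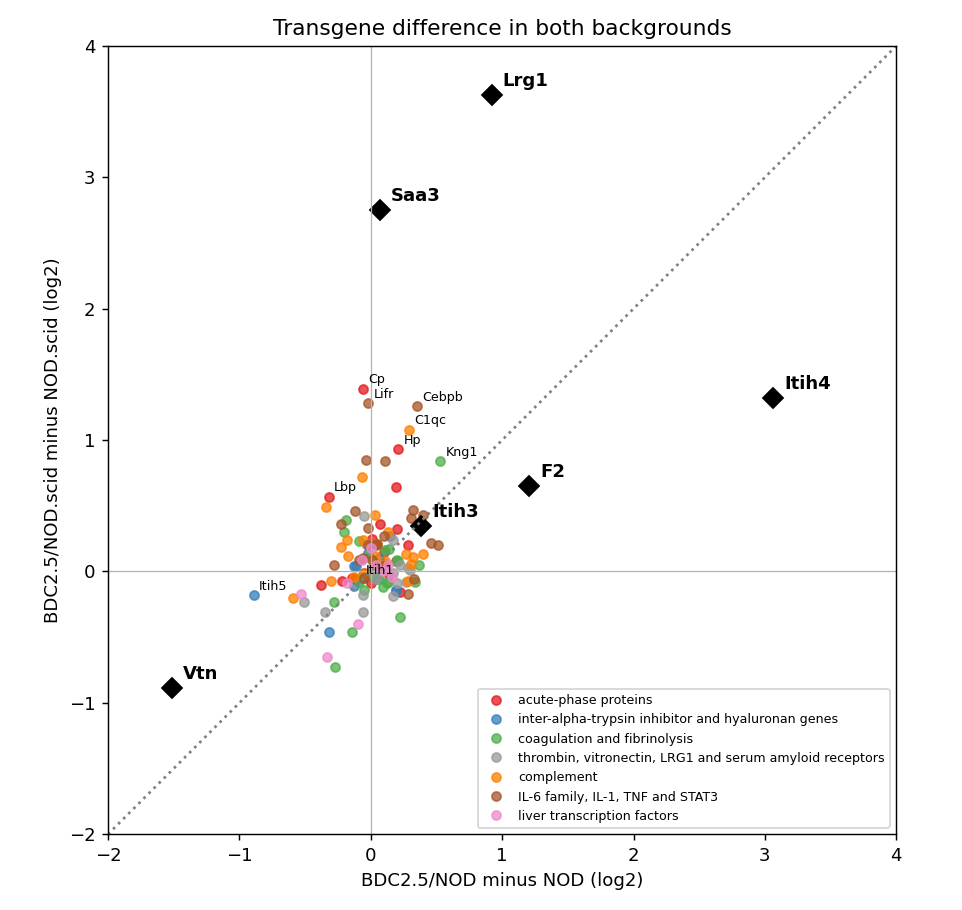
Transgene difference in NOD (x axis, log2) against that in NOD.scid (y axis, log2) for the 6 genes (black diamonds) and the genes of 7 pathway lists (coloured points), with equality as a dotted line. Lrg1 and Saa3 lie above the line with Cp, Lifr and Cebpb, while Itih4 and F2 lie below it and Vtn has 2 negative differences; NOD.scid and NOD controls are separate arrays.

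Genes around the inter-alpha-trypsin inhibitors and hyaluronan mostly did not pass. Of 14 listed, 13 were measured; with the transgene 0 passed in NOD.scid (median -0.06 against -0.005) and 1 fell in NOD (median -0.02 against 0.03). This was Itih5, a heavy chain gene outside the chromosome 14 cluster, which fell by 0.89 (SE 0.123, adjusted p = 0.000981 by limma), while its second probe set differed by 0.08. At the first probe set the difference of effects was 0.72 (adjusted p = 0.0365), against -0.11 at the second, and it did not pass with any 1 array left out except BDC2.5/NOD.scid replicate 2 (range 0.55 to 0.89).

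Of 30 genes of coagulation and fibrinolysis, the system of F2, 26 were measured. With the transgene in NOD.scid 2 rose and 1 fell (median -0.002 against -0.005), and in NOD 1 rose and none fell (median 0.06 against 0.03). Kng1, encoding the kininogen of the contact system, rose by 0.84 in NOD.scid (SE 0.122, adjusted p = 0.00108) and by 0.53 in NOD (SE 0.122, adjusted p = 0.0195). Vkorc1, encoding the enzyme that recycles vitamin K for the carboxylation of prothrombin, fell by 0.72 in NOD.scid (SE 0.099, adjusted p = 0.000752). Pros1, encoding protein S, a cofactor in the inactivation of clotting factors, rose by 0.39 in NOD.scid (adjusted p = 0.0385), and did not pass without any 1 of the 6 arrays of BDC2.5/NOD, BDC2.5/NOD.scid or NOD.scid (0.32 to 0.45). Kng1 in NOD did not pass without either BDC2.5/NOD array or NOD replicate 1 (0.46 to 0.59). F12, encoding the protease that starts the contact pathway, had group means of 5.02 to 5.15.

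Receptors of thrombin, vitronectin, LRG1 and serum amyloid, with their transducers, were measured for 19 of 26 genes. With the transgene none passed in NOD.scid (median 0.002 against -0.005), and in NOD 1 fell (median 0.04 against 0.03). Smad1, encoding a transducer of the TGF-beta family signal that LRG1 modulates, fell by 0.51 in NOD (SE 0.129, adjusted p = 0.0305; its second probe set differed by -0.44 and did not pass), and without any 1 of the 4 NOD and BDC2.5/NOD arrays it did not pass (-0.59 to -0.34). Among transgenic mice Fpr2, encoding a formyl peptide receptor that binds serum amyloid A, was higher with scid by 0.50 (adjusted p = 0.0331), which did not pass without either BDC2.5/NOD array or BDC2.5/NOD.scid replicate 1 (0.27 to 0.72).

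Complement genes, many of them acute-phase proteins too, were measured for 23 of 33. With the transgene in NOD.scid 4 rose and none fell (median 0.12 against -0.005), and in NOD 1 rose and 1 fell (median 0.03 against 0.03). C1qc and C1qa, which encode chains of C1q and are made mainly by macrophages, rose in NOD.scid by 1.08 (SE 0.091, adjusted p = 9.97e-06) and 0.71 (SE 0.097, adjusted p = 0.000697) by limma. C1qb, encoding the remaining chain and named after its values were seen, did not pass there. Its means were 6.56 for NOD.scid and 6.67 for BDC2.5/NOD.scid. Serping1, encoding the C1 inhibitor, rose by 0.48 (adjusted p = 0.0126), but did not pass without NOD.scid replicate 2 or either BDC2.5/NOD.scid array (0.40 to 0.57). The transgene effects on C1qc (difference of effects 0.79, adjusted p = 0.00401), C1qa (0.78, adjusted p = 0.00655) and Serping1 (0.82, adjusted p = 0.00684) differed between backgrounds. Those of C1qa without BDC2.5/NOD replicate 2 and of Serping1 without BDC2.5/NOD replicate 1 did not pass, at adjusted p of 0.0564 and 0.061. Among transgenic mice 6 complement genes rose with scid (median 0.18 against -0.01). Of these C1ra (0.36 to 0.62), C2 (0.30 to 0.39) and Cfp (0.47 to 0.64) were named after their values were seen. They did not pass without BDC2.5/NOD replicate 2 or BDC2.5/NOD.scid replicate 1, and C1ra and C2 also not without further arrays.

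Genes of the signals known to raise acute-phase transcription were measured for 24 of 28 in a list of the IL-6 family, IL-1, TNF and STAT3. With the transgene 5 rose in NOD.scid (median 0.21 against -0.005) and 2 rose in NOD (median 0.04 against 0.03), and none fell in either. In NOD.scid Lifr, encoding the receptor of leukaemia inhibitory factor, rose by 1.28 (SE 0.101, adjusted p = 5.19e-06) on a baseline that was 0.93 lower in NOD.scid than in NOD (adjusted p = 0.000297). Of 4 other Lifr probe sets, 2 also rose and 2 did not pass. Cebpb, encoding a C/EBP factor, rose by 1.26 (SE 0.128, adjusted p = 5.47e-05). Nfkbia, encoding an inhibitor and target of NF-kB, rose by 0.84 (SE 0.133, adjusted p = 0.00195). In NOD the 2 were Stat3, up by 0.45 (SE 0.09, adjusted p = 0.00849), and Junb, a gene of the AP-1 factors, up by 0.51 (SE 0.118, adjusted p = 0.02). Neither passed without either BDC2.5/NOD array or NOD replicate 1, nor did Junb without NOD replicate 2 (0.38 to 0.53 for Stat3, 0.45 to 0.63 for Junb). Group means of Il6 itself were 2.33 to 2.44.

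Liver transcription factors, which drive F2 and Vtn in hepatocytes, were measured for 10 of 12. With the transgene none rose: 2 fell in NOD.scid (median -0.02 against -0.005) and 1 in NOD (median -0.03 against 0.03). Foxa2, encoding a forkhead factor of liver and pancreas, fell by 0.66 in NOD.scid (SE 0.118, adjusted p = 0.00456). Foxa3, of the same family, fell by 0.40 there (adjusted p = 0.0403), and did not pass with any 1 array left out except NOD.scid replicate 2 (-0.51 to -0.29). Nr5a2, encoding a nuclear receptor of acinar cells and liver, fell by 0.53 in NOD (SE 0.103, adjusted p = 0.00753; its second probe set differed by -0.08), and did not pass without BDC2.5/NOD replicate 1 or NOD replicate 2 (-0.64 to -0.42).

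Markers of cells that can make these proteins were followed as lists. For scale in all marker lists, 2.37% of all probe sets passed as higher and 4.03% as lower with the transgene in NOD.scid (median -0.005). In NOD these were 3.91% and 4.06% (median 0.03). Of 23 hepatocyte markers 19 were measured; with the transgene 1 rose and 1 fell in NOD.scid (median 0.07), and 1 fell in NOD (median 0.12). Their summed signal, on a log2 scale, was 8.58 to 8.60 for NOD, 8.65 to 8.67 for BDC2.5/NOD, 8.64 to 8.70 for NOD.scid and 8.68 to 8.75 for BDC2.5/NOD.scid. Alb, encoding albumin, the most abundant hepatocyte transcript, read 3.73 to 4.17 over the 8 arrays, with group means of 3.92 for NOD, 3.78 for BDC2.5/NOD, 3.87 for NOD.scid and 4.04 for BDC2.5/NOD.scid. Apob had group means of 2.66 to 2.77 and Fabp1 of 3.14 to 3.29. Other markers of the list, named after their values were seen, read higher. Group means were 5.35 to 5.66 for Hpd, 5.15 to 5.44 for Apoa2 and 5.10 to 5.25 for Ttr. The part of hepatocyte transcripts in the differences of the 6 genes was not tested.

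Macrophage markers were higher in the group with the highest Lrg1 and Saa3. With the transgene 6 of 14 rose in NOD.scid and none fell (median 0.32), and none passed in NOD (median -0.01). Ctss, encoding cathepsin S, rose by 2.61 in NOD.scid (SE 0.101, adjusted p = 9.84e-09) and Lyz2, encoding a lysozyme of myeloid cells, by 1.95 (SE 0.159, adjusted p = 7.07e-06), while a second Lyz2 probe set differed by 0.44 and did not pass. The summed signal was 8.44 to 8.56 for NOD, 8.45 to 8.51 for BDC2.5/NOD, 8.56 to 8.60 for NOD.scid and 9.38 to 9.5 for BDC2.5/NOD.scid. Its part in the Lrg1 and Saa3 differences was not tested.

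Several neutrophil markers were lower with the transgene, mostly in NOD.scid, and their part in the differences of the 6 genes was not tested. With the transgene 5 of 10 fell in NOD.scid (median -0.35) and 2 in NOD (median -0.05), where 8 did not pass. Without the transgene 6 were higher in NOD.scid than in NOD (median 0.51 against 0.03) and 0 were lower, where 0.741% and 1.61% of all probe sets passed. By limma S100a9, encoding a calcium-binding protein of neutrophils, fell by 2.02 in NOD.scid (SE 0.108, adjusted p = 1.4e-07) and Camp, encoding cathelicidin, by 1.28 (SE 0.091, adjusted p = 2.23e-06). Their means were highest in NOD.scid, at 6.14 and 6.78. They were 4.33 and 5.53 for NOD, 3.92 and 5.41 for BDC2.5/NOD, and 4.12 and 5.5 for BDC2.5/NOD.scid. Among transgenic mice, S100a8, encoding the partner of the S100a9 protein, was higher with scid by 0.94 (SE 0.202, adjusted p = 0.0124 by limma). This did not pass without BDC2.5/NOD replicate 2 or BDC2.5/NOD.scid replicate 1 (0.58 to 1.30).

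Several fibroblast and matrix genes of the fibroblast and pericyte list were lower with the transgene, and not all of them in both backgrounds. With the transgene 7 of 13 fell in NOD (median -0.48) and 5 in NOD.scid (median -0.14), and none rose. Dcn, encoding the matrix proteoglycan decorin, fell by 1.45 in NOD (SE 0.159, adjusted p = 0.000172) and Col1a2, encoding a collagen chain, fell by 0.77 (SE 0.089, adjusted p = 0.000253), while its second probe set differed by -0.24. The other 5 that fell in NOD were Col1a1, Col3a1, Lum, Pdgfra and Postn, named after their values were seen. Col1a1 in NOD did not pass without either NOD or either BDC2.5/NOD array (-0.59 to -0.46). Nor did Pdgfra without either BDC2.5/NOD array or NOD replicate 2 (-0.56 to -0.34). In NOD.scid, Col1a1, Col3a1 and Postn did not pass without BDC2.5/NOD.scid replicate 2, among other arrays. The pericyte and smooth muscle members Rgs5, Des, Mcam, Pdgfrb and Acta2 did not pass with the transgene in either background, and Mcam had means of 5.04 for NOD and 5.23 for BDC2.5/NOD. In NOD.scid Lum, encoding lumican, fell by 0.77 (SE 0.131, adjusted p = 0.00326). The summed signal was 10.33 to 10.35 for NOD, 9.60 to 9.61 for BDC2.5/NOD, 10.14 to 10.27 for NOD.scid and 9.95 to 9.98 for BDC2.5/NOD.scid. Its part in the Vtn differences was not tested.

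Other cells of the tissue moved too, and their part in these differences was not tested. Of 9 acinar markers 2 rose with the transgene in NOD and none passed in NOD.scid, with Sycn, encoding the zymogen granule protein syncollin, up by 0.95 (SE 0.091, adjusted p = 5.36e-05) in NOD. Of 15 islet markers 5 fell in each background, including Sst, encoding somatostatin, by 1.04 in NOD and 1.39 in NOD.scid (adjusted p = 2.21e-05 and 8.39e-07). Of 8 adipocyte markers 3 fell in NOD and none passed in NOD.scid. Of 10 endothelial markers none passed in either, and of 8 duct markers 2 rose and 1 fell in NOD and 1 fell in NOD.scid.

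**Figure D4:**
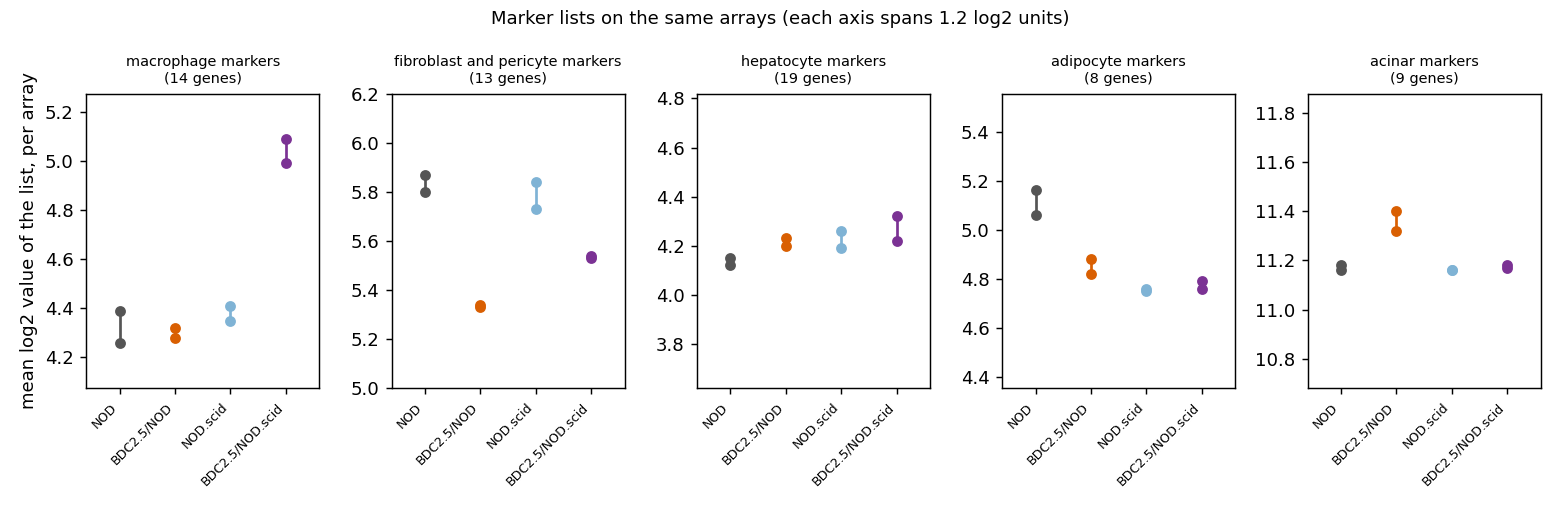
Mean log2 signal of the marker lists (y axis; each axis spans 1.2 log2 units) in the 4 groups (x axis), with each point 1 array. Macrophage markers are highest in BDC2.5/NOD.scid (4.99 to 5.09 against 4.26 to 4.41 on the other arrays), and the mean of the fibroblast and pericyte list is lowest in BDC2.5/NOD (5.33 to 5.34).

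The genes whose levels followed each of the 6 most closely were found by Pearson's r over the 8 arrays. The arrays form 4 groups, so r reflects mainly the group means, and it is given as a description. For Lrg1 they were Ccl9, a chemokine gene (r = 0.9964), and H2-K1 and H2-D1, which encode MHC class I chains (0.9952 and 0.9929). For Saa3 they were H2-Aa and H2-Eb1, which encode MHC class II chains (r = 0.9991 and 0.994), and B2m, encoding beta-2-microglobulin (0.9936). H2-Aa had means of 5.91, 5.96 and 5.72 for NOD, BDC2.5/NOD and NOD.scid and 8.69 for BDC2.5/NOD.scid, the pattern of Saa3. Probe sets of class I genes can share signal between family members.

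For Itih4 the closest were Serpina10, encoding the plasma inhibitor of factor X with protein Z (r = 0.9815), Relb, a subunit of NF-kB (0.9793), and Slc7a8, an amino acid transporter gene (0.9719). Serpina10, itself a plasma protein gene, had means of 5.33 for NOD, 5.32 for NOD.scid, 5.89 for BDC2.5/NOD.scid and 6.34 for BDC2.5/NOD. For F2 they were Zg16 (0.9804), encoding a zymogen granule protein, Reg3g (0.9662), encoding an antibacterial lectin, and Itih4 (0.9641). The range of Zg16 was small, with means of 12.2 for NOD, 12.24 for NOD.scid, 12.31 for BDC2.5/NOD.scid and 12.36 for BDC2.5/NOD. Reg3g had means of 2.73 for NOD, 2.86 for NOD.scid, 6.14 for BDC2.5/NOD.scid and 6.71 for BDC2.5/NOD.

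For Vtn they were Nrp1, encoding the co-receptor neuropilin (r = 0.9841), Zmynd11 (0.9788) and Col1a2 (0.9787), of which Nrp1 had means of 6.38 for NOD and 5.38 for BDC2.5/NOD. For Itih3, whose range was small, they were Elk1 (0.9846), Cyp2f2 (0.9706) and Myd88 (0.9635). Ranked by Spearman's rho instead, 0 of these 18 genes were among the closest.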

How the data were processed

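Expression was read from the series table of the 8 arrays. Its values were taken as log2, as deposited by the authors, with the base inferred from their range (2.021 to 13.78); the sources used here do not give how the authors corrected background, normalized and summarised probes. No scaling was added. Of 12488 probe sets, 66 controls were left out and 12422 tested; 10833 had 1 gene symbol in the platform annotation, 396 several and 1193 none, and 10817 matched by gene identifier to GRCm38.p6, with 0 symbols changed. Where a gene had several probe sets, that of highest mean stood for it.

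A model of group means over the 8 arrays was fitted in R 4.3.3 with limma 3.58.1 (lmFit, eBayes with a variance trend; 4 residual and 8.07 prior degrees of freedom), tested on simulated data. Tests were two-sided, with Benjamini-Hochberg adjustment over 12422 probe sets and a threshold of 0.05. Tables and figures used pandas 2.3.3 and matplotlib 3.10.9. The 2 arrays of a group limit the precision of every value.

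The 6 genes and the lists were chosen with earlier results of these data known. The rule for named genes took all 6, up to 3 genes per direction past the threshold with the smallest p for each pathway list and comparison (2 for marker lists), and the 3 genes with the highest r to each of the 6, among probe sets with 1 symbol and a group mean above 4.27, the median of all values. Not every gene taken by this rule is named in the text, for example Mbl1 and Cd55 of complement. Alternatives covered normalization, dim probe sets, the variance prior, array weights, the actin control, the samples fitted, a stricter threshold and each array left out.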

Additional observations from a re-analysis of the deposited data

Results flagged for a closer look

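Each of the following was picked out because the transgene effect in NOD.scid differed from that in NOD; values are the first minus the second on the log2 scale, and for genes other than the 6 they passed limma's test of the difference. Among the 6 genes the values were 2.70 for Lrg1, 2.68 for Saa3, -1.74 for Itih4 and 0.63 for Vtn, given as a description. The acute-phase genes Cp, Lbp and Hp stood at 1.45, 0.90 and 0.72, Itih5 at 0.72 (-0.11 at a second probe set) and Pros1 at 0.58. Among complement genes, C1qc stood at 0.79, C1qa at 0.78 and Serping1 at 0.82. The signalling genes Lifr, Cebpb and Pim1 stood at 1.29, 0.91 and 0.59. The 4 other Lifr probe sets gave 1.0, 1.19, 0.11 and -0.40, of which the first pair passed, and a second Pim1 probe set gave 0.25, which did not.

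Among marker genes, Ctss and Lyz2 of macrophages stood at 2.82 and 2.15 (0.45 at a second Lyz2 probe set), S100a9 and Camp of neutrophils at -1.61 and -1.16, and Adipoq of adipocytes at 0.95. Dcn and Pdgfra of fibroblasts stood at 1.59 and 0.57 (-0.27 and -0.01 at 2 other Pdgfra probe sets), Sycn of acinar cells at -0.68, Car2 and Muc1, listed for ducts, at -2.18 and -0.85, and Ins2 of islets at -0.72 (0.10 at a second probe set). Some of these calls did not pass with 1 array left out. Without either BDC2.5/NOD array, Pros1 (0.52 to 0.65), Itih5 (0.55 to 0.89), Hp (0.59 to 0.85), Cebpb (0.76 to 1.06), Pim1 (0.54 to 0.64), Adipoq (0.75 to 1.16), Pdgfra (0.47 to 0.67), Sycn (-0.79 to -0.60) and Muc1 (-1.01 to -0.70) did not, where the ranges cover every alternative. Cebpb and Pim1 also did not without NOD replicate 1, nor Sycn and Muc1 without NOD replicate 2. Hp and Adipoq did not without NOD replicate 2, BDC2.5/NOD.scid replicate 1 or NOD.scid replicate 1, and neither did Pdgfra, which also failed without NOD.scid replicate 2. Pros1 and Itih5 passed without BDC2.5/NOD.scid replicate 2 and without no other array. Lbp and C1qa did not pass without BDC2.5/NOD replicate 2 (adjusted p = 0.0647 and 0.0564 by limma), nor Serping1 and Ins2 without BDC2.5/NOD replicate 1 (0.061 and 0.0545).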

How the results depend on the processing

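Over all alternatives no difference of the 6 genes that was past the threshold changed sign. This and the lost calls below are a description, since the 6 genes were picked on these values. Past-threshold calls were lost for Itih3 with the transgene in NOD under 9 settings (0.29 to 0.40), Itih4 with scid and no transgene under 8 (0.39 to 0.49), the Vtn difference of effects under 7 (0.53 to 0.68), F2 with the transgene in NOD.scid under 3 (0.51 to 0.65) and Vtn with scid among transgenic mice under 1 (0.53). F2 could not be tested with dim probe sets left out. Counts of probe sets past the threshold moved more. With the transgene in NOD.scid, 795 became 1321 with the actin control as a term, 455 with only the 2 groups fitted and 432 at a threshold of 0.01, and 445 to 746 with 1 array left out (445 without BDC2.5/NOD.scid replicate 2, 521 without NOD.scid replicate 1). With the transgene in NOD, 990 became 278 with the BDC2.5/NOD arrays averaged as 1 sample, 1568 with array weights, 1521 with only the 2 groups and 419 at 0.01, and 279 to 1139 with 1 array left out (279 and 323 without BDC2.5/NOD replicates 1 and 2, 479 without NOD replicate 1). With scid and no transgene, 292 became 159 with BDC2.5/NOD as 1 sample, 781 with the actin term, 143 with only the 2 groups and 109 at 0.01, and 71 to 352 with 1 array left out (159 without either BDC2.5/NOD array, 128 and 71 without NOD replicates 1 and 2, 97 without NOD.scid replicate 2). With scid among transgenic mice, 1037 became 311 with BDC2.5/NOD as 1 sample and 484 at 0.01, and 329 to 1149 with 1 array left out (370 and 329 without BDC2.5/NOD replicates 1 and 2, 635 without BDC2.5/NOD.scid replicate 2). For the difference of effects, 586 became 197 with BDC2.5/NOD as 1 sample, 994 with the actin term and 229 at 0.01, and 195 to 491 with 1 array left out (195 and 214 without BDC2.5/NOD replicates 1 and 2, 346 without NOD replicate 1); it has no fit to 2 groups. Fits with fewer arrays or groups have fewer degrees of freedom; otherwise the cause was not tested. Where an array was left out, its lone partner was assumed to vary like the other groups. With the transgene in NOD, 486 were higher and 504 lower as deposited, and 408 and 640 with array medians centred. Of the 18 closest genes, 0 were kept by Spearman's rho. Fitted with a replicate block, the counts were 647, 762, 195, 826 and 411 in the order above. In each group 1 title has a number and the other none. Deviations of same-numbered arrays from their group means had r from -0.322 to 0.287 over probe sets, with mixed signs between pairs of groups. Neither the labels nor these values show that the numbers pair the arrays, and what the shared deviations reflect was not tested. The comparison within arrays of low or high actin was chosen after seeing the data.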
